A study of Mus musculus with 6 samples.

Results

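The cytosolic ribosomal protein genes were examined in CD31-sorted mammary endothelial cells from tumor-bearing mice, with Ets2 present or deleted in the surrounding fibroblasts. Members were the genes with the symbols Rpl or Rps followed by a number and optionally a, x or l, together with Rplp0, Rplp1, Rplp2 and Rpsa, on probe sets annotated with exactly 1 gene. Rps6k kinases and symbols ending in -ps were left out, and of several probe sets the one with the highest mean signal represented its gene. This gave 46 genes of the 18193 with a probe set of their own, 24 of the large and 22 of the small ribosomal subunit, from 100 of the 45037 probe sets tested.

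Ribosomal proteins assemble with ribosomal RNA in the nucleolus into a large subunit, which joins amino acids, and a small subunit, which decodes the mRNA. Their own mRNAs are among the most abundant of any cell and carry a terminal oligopyrimidine (TOP) tract at the start, through which mTOR, by way of the RNA-binding protein Larp1, sets how fast they are translated. Free ribosomal proteins such as Rpl11 can bind Mdm2 and stabilize p53 when assembly fails. In endothelium, as in other tissues, ribosome supply is tied to growth and cell division.

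RNA came from FVB/N mice aged 9 weeks, 3 per group, described in the study as biological replicates. Each sample was hybridized to 1 Affymetrix mouse expression array. All mice carried PyMT, the polyoma middle T oncogene that the MMTV promoter drives in mammary epithelium, and all carried Ets2db, a conventional knockout allele that lacks the DNA-binding domain, opposite a loxP allele. The control group (PyMT;Ets2db/loxP) had no Cre. The deleted group (PyMT;Fsp-cre;Ets2db/loxP) had Cre under the promoter of Fsp1 (S100a4), which is active in fibroblasts and also in some macrophages. The source field of the control samples names no oncogene, whereas titles and genotype name PyMT, and the genotype was used. Values are log2 signals made by RMA (Robust Multichip Average), and a difference always means deleted minus control on this scale, where 1 is a doubling. Genes with a mean signal above 13 are called bright. In these bulk samples fewer cells of a type and less RNA per cell cannot be told apart.

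Endothelial markers gave clear signals in the sorted cells, but so did markers of other cells. All 13 endothelial markers, among them Pecam1 (CD31) and Cdh5 (VE-cadherin), had mean signals between 11.03 and 13.16, and their median difference was 0.15. The 10 epithelial markers had mean signals between 10.5 and 14.6 and a median difference of -0.14. Their median signal was 12.3, against 12.4 for the endothelial markers, so the signals do not show a purely endothelial sample. All 11 measured macrophage markers had negative differences (median -0.73), and their median deviation from the gene's mean ran from 0.092 to 0.84 over the control and from -0.54 to -0.012 over the deleted arrays. All 12 fibroblast markers were negative as well (median -0.53), with 0.13 to 0.48 over the control and -0.32 to -0.11 over the deleted arrays. Of the 10 pan-leukocyte markers, 8 had negative and 2 positive differences (median -0.33). The part of non-endothelial cells in the ribosomal protein signals was not tested.

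Control replicate 3 stood apart from the other arrays. The 3′ signal of Gapdh exceeded its 5′ signal by 1.31 there and by 0.75 to 1.01 on the other 5 arrays, and for beta-actin by 1.67 against 0.99 to 1.29. For many named genes whose difference shrank or turned without this array, that value is given beside it. The other differences that turned became 0.025 in Rps6, -0.036 in Rps19, -0.0098 in Rplp2 and 0.013 in Rpl14. They became 0.033 in Rpl41, -0.0085 in Rps4x and 0.0087 in Rps29.

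Not all ribosomal protein genes could be measured this way. RefSeq lists 81 protein-coding mouse genes whose symbols fit the rule. Of these, 45 had a probe set of their own, and 28 lay only on probe sets annotated with several genes, among them Rpl3, Rpl5, Rpl10, Rplp1 and Rps12. The other 8 were not analysed here. The remaining member, Rps4l, is a transcribed pseudogene in RefSeq. Ribosomal proteins have many processed pseudogenes and near-identical copies, and 12 of the 46 representatives were of the _x_at type, whose probes can bind other transcripts, so a signal may include such copies.

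Pyrimidine stretches at the start site, which the choice of members did not use, were present in 19 of the 40 genes searched, more often than in all genes. Windows from 250 bases before to 50 after the annotated start were found for 40 of the 46 genes (RefSeq, GRCm38.p6). The 6 genes without one were Rpl7, Rpl8, Rps4l, Rps14, Rps20 and Rps29. The stretch was an unbroken run of at least 8 pyrimidines reaching within 10 bases of the start, and 47.5% of the 40 genes held one, against 16.1% of all 27025 genes with windows. The start base was C, the first letter of a TOP tract, in 32.5% of the members and 18.9% of all genes. The sequences below, from 30 bases before the start to base 15 of the transcript, are shown because they belong to the 3 bright genes with the most negative and the 3 with the most positive difference among those with a window, and to one of the least variable genes. Capitals mark the longest pyrimidine stretch that reaches within 10 bases of the start, and the start is the first base after the 30 that precede it.

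Rps26 (chr10:128626492-128626536, minus strand): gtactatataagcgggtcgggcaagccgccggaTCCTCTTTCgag
Rpl35 (chr2:39005117-39005161, minus strand): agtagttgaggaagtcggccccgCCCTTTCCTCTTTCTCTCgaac
Rps28 (chr17:33824548-33824592, minus strand): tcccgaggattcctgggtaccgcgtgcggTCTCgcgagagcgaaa
Rpl27 (chr11:101442215-101442259, plus strand): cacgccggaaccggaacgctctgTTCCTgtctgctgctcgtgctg
Rps9 (chr7:3704011-3704055, plus strand): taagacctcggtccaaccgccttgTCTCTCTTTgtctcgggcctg
Rpl11 (chr4:136053379-136053423, minus strand): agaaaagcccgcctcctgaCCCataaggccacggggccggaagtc
Rpl27a (chr7:109519165-109519209, plus strand): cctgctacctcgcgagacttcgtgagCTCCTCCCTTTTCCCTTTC

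The stretch was 9 bases long in both Rps26 (difference -0.17) and Rps9 (0.10). It was 18 bases long in Rpl35 and 20 in Rpl27a, and 4, 5 and 3 in Rps28, Rpl27 and Rpl11. In Rpl27a the last base of the stretch lies beyond the sequence shown. The 19 genes with a stretch of at least 8 had a median difference of -0.026 and spanned -0.17 to 0.10, and the 21 without one had a median of 0.039 and spanned -0.17 to 0.42.

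**Figure D1:**
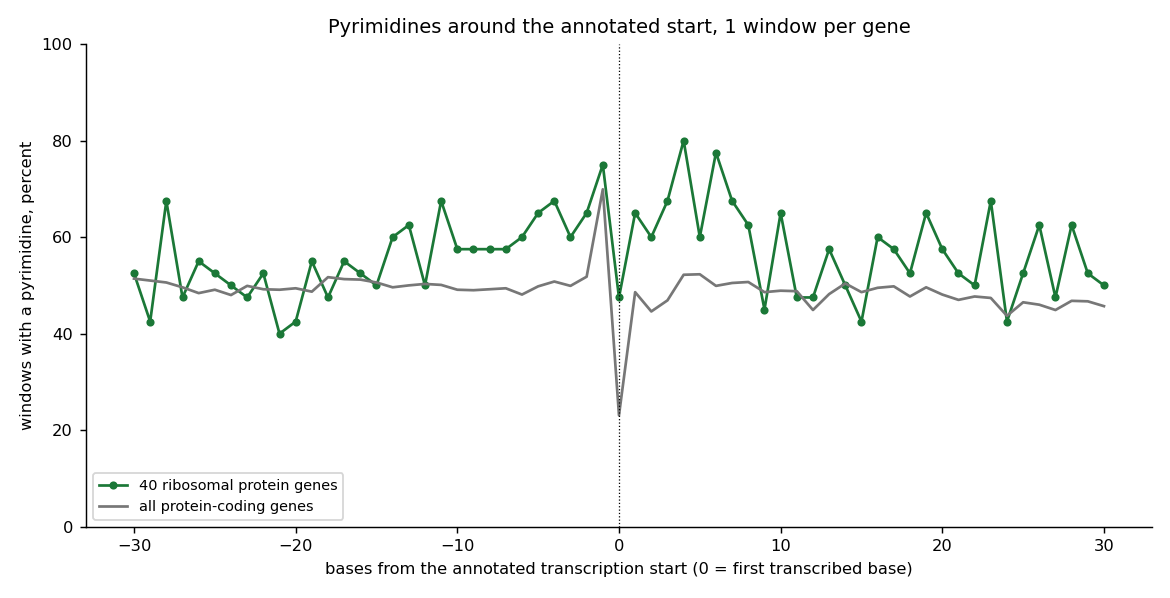
Percentage of genes with a pyrimidine at each base from 30 before to 30 after the annotated start (0 is the first transcribed base), with 1 window per gene, for the 40 members (green points) and for all protein-coding genes (grey line). The members lie above the grey line at each base from 11 before to 8 after the start, with 80% at base 4 against 52.2% of protein-coding genes.

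The windows were also searched on both strands for CCGGAAGT, a sequence of the type bound by GABP and other Ets family factors. It was present in 10 of the 40 genes (25%) and in 4.31% of all genes. In Rpl11 it lies within the sequence shown above, at the end of the line. The genes were Rpl11, Rpl19, Rpl35, Rpl37, Rpl41, Rps6, Rps18, Rps25, Rps27l and Rpsa. Their median difference was -0.041, against 0.022 for the 30 genes without it. The former spanned -0.17 to 0.09 and the latter -0.17 to 0.42. Several of these values rested on control replicate 3. Among those recomputed without it, Rpl35 (0.012), Rpl37 (0.045), Rpl41 (0.033) and Rps6 (0.025) turned positive and Rpl11 (-0.014) negative. AAGATGGC, of the YY1 type, was found in 3 genes (Rpl13a, Rpl22 and Rps27), or 7.5% against 3.19% of all genes. TATAA, the core of the TATA box, was found in 32.5% of the members and 28.0% of all genes, and no member held both CCGGAAGT and AAGATGGC. A match is a description of the window only.

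The signals of most members lay near the top of the scale, where spread was small for other genes too. Of the 46 genes, 35 had a mean signal above 13, 18 of the large and 17 of the small subunit, and their values ran from 12.99 to 14.72 where the highest value of any tested probe set was 14.91. The SD over all 6 arrays, groups pooled, had a median of 0.084 over the members and 0.076 over these 35, whereas it was 0.22 over 1 probe set per gene and 0.13 over all 503 bright genes of the arrays. The spread moved with the signal. At a signal above 14 the median SD was 0.068 over 27 members and 0.087 over 55 other genes, and at 13 to 14 it was 0.15 over 8 members and 0.14 over 411 other genes. An array signal near its upper end responds less to a change in RNA, and in 12 of the 16 members with several bright probe sets the brightest one had the smallest SD. Small spreads and differences of bright members describe the signal, and how stable the mRNA was cannot be read from them. Whether they come from the mRNA or from the upper end of the scale was not tested. Only 4 members lay below the median of all probe sets. The least variable members were Rps29 (SD 0.029), Rps15 (0.038) and Rpl27a (0.038), which are proteins of the small subunit head, of the decoding region and of the large subunit.

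No ribosomal protein gene passed the test between the groups. By limma with Benjamini-Hochberg adjustment over all 45037 probe sets, 0 of 46 genes passed at 0.05, and 0.0% of all probe sets did. At an unadjusted p under 0.05 the count was again 0 in both subunits and both directions, where 1.1% of all probe sets were lower and 0.977% higher in the deleted group. No member passed a fold change over 2. The 3 deleted arrays lay all below or all above the 3 control arrays for none of the 46 genes, a separation that 2.83% of all probe sets showed downward and 3.61% upward. The members' counts thus lay at or below the shares of all probe sets. The 503 bright genes, which are closer to most members in signal, gave 0 lower and 0 higher at an unadjusted p under 0.05. Without overlap, 4 of the 503 lay lower and 10 higher. A count of 0 is therefore not particular to ribosomal protein genes.

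The median difference was -0.0081 over the 24 large subunit genes, of which 15 had a negative and 9 a positive value, and 0.026 over the 22 small subunit genes, with 8 negative and 14 positive. Over all probe sets it was 0.012, and over the 503 bright genes it was 0.016. Without control replicate 3 the median of the small subunit genes was -0.015. The half-width of the 95% intervals, which describe the signal and place no bound on the change in mRNA for probe sets near the top of the scale, had a median of 0.32 for the members and 0.45 for all probe sets, and 34 of the 46 intervals lay within 0.5 of 0 on either side and 45 within 1. The exception was Rps4l (-0.14 to 1.21). The smallest half-width was 0.291 among the members and 0.288 among all probe sets. Near this value it is set mostly by limma's moderation over all probe sets. Among the 35 bright genes the ratio of signals, deleted over control, ran from 0.886 to 1.11. Less bright probe sets of the same genes gave larger differences in some cases, with 0.21, 0.17 and 0.16 in Rpl27 at signals of 13.30, 13.47 and 14.04, and 0.18 and -0.0016 in Rpl37a at 13.83 and 14.04, and the brightest probe set had the smallest difference in 8 of the 16 genes.

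**Figure D2:**
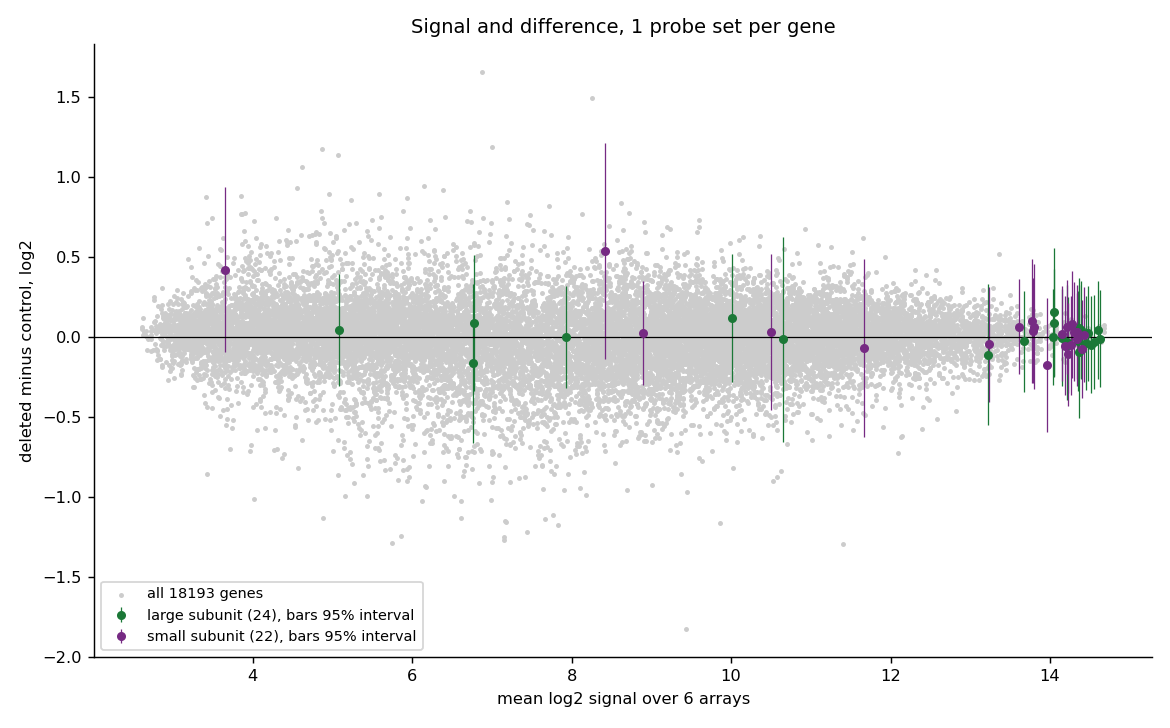
Difference, deleted minus control on the log2 scale, against the mean log2 signal over the 6 arrays for 18193 genes (grey), with the 24 large (green) and 22 small subunit genes (purple) and their 95% intervals. The 35 bright members crowd at the right end between -0.17 and 0.16, and every member's interval includes 0.

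Among the large subunit genes, the most negative values were those of Rpl37, Rpl8, Rpl35, Rpl10a and Rpl13a. Rpl8, which lies near the peptidyl transferase center, had signals of 12.99, 13.35 and 13.49 in the control and 13.02, 13.40 and 13.08 in the deleted arrays, a difference of -0.11. Rpl35, at the exit of the peptide tunnel, had 14.17, 14.45 and 14.63 in the control and 14.14, 14.52 and 14.30 in the deleted arrays, a difference of -0.09. In both genes the values of the groups overlapped, control replicate 3 was the highest array, and without it the differences were -0.0061 and 0.012. Rpl37 was dim, with a mean signal of 6.77 and a difference of -0.17 that also turned without that array (0.045). Ribosomal protein mRNAs are abundant, and whether this dim probe set reads the main transcript of Rpl37 was not tested. Rpl10a, of the mobile L1 stalk, and Rpl13a, which silences translation in the interferon response when released from the ribosome, had differences of -0.05 each, and deleted replicate 1 was their lowest array.

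The most positive values of the large subunit were those of Rpl27, Rpl12, Rpl39l, Rpl11 and Rpl6. Rpl27, a core protein mutated in some cases of Diamond-Blackfan anemia, had 14.16, 14.07 and 13.66 in the control and 14.18, 14.06 and 14.13 in the deleted arrays. The difference of 0.16 rested on control replicate 3, the single low value, and was 0.0034 without it. Rpl11, which binds 5S ribosomal RNA and Mdm2, showed the same arrangement: 14.11, 14.09 and 13.80 in the control against 14.08, 14.10 and 14.08 in the deleted arrays, with a difference of 0.09 and of -0.014 without control replicate 3. Rpl6 differed by 0.05 (0.0065 without that array) and Rpl12, at the base of the stalk that recruits elongation factors, by 0.12 (0.24 without it). Of the stalk proteins themselves, Rplp0 differed by -0.03 and Rplp2 by 0.02, both within a spread of 0.083 and 0.049 (SD over 6 arrays).

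In the small subunit the most negative values were those of Rps26, Rps20, Rps28, Rps6 and Rps7. Rps26, which sits where mRNA leaves the ribosome, had 13.83, 14.02 and 14.28 in the control and 13.72, 14.09 and 13.80 in the deleted arrays, a difference of -0.17 with a standard error of 0.18. Its highest array was control replicate 3 and its lowest deleted replicate 1, and the difference was -0.055 without the former. Rps20 (-0.11), and Rps28 (-0.08) and Rps7 (-0.06), both mutated in some families with Diamond-Blackfan anemia, had the same highest and the same lowest array. Rps6, the ribosomal target of S6 kinases, had 11.53, 11.69 and 11.89 in the control and 11.25, 12.10 and 11.56 in the deleted arrays, so that both extremes lay within the deleted group (difference -0.07).

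The most positive values of the small subunit were those of Rps4l, Rps16, Rps9, Rps10 and Rps14. Rps4l had 8.48, 8.48 and 7.49 in the control and 8.82, 8.78 and 8.47 in the deleted arrays. The single value of 7.49 on control replicate 3 set most of the difference of 0.54, which was 0.21 without it. Rps16, a protein near the P site, was represented by a probe set with a mean of 3.66, close to the lower end of the scale, with 3.38, 3.59 and 3.37 in the control and 4.22, 3.96 and 3.42 in the deleted arrays. Its p was the smallest of all members, but it did not pass at an unadjusted 0.05, its groups overlapped, and a value this low holds mostly background. Whether it reads the main transcript was not tested. Without deleted replicate 3 its difference was 0.64 rather than 0.42, and it then passed at an unadjusted p under 0.05, though not after adjustment. Rps9, which guards decoding accuracy, had 13.87, 13.86 and 13.43 in the control and 13.77, 13.82 and 13.86 in the deleted arrays. Rps10 and Rps14, the gene lost in the human 5q- syndrome, differed by 0.08 and 0.06. These 3 genes had their lowest value on control replicate 3, and without it they differed by -0.046, -0.012 and -0.081.

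**Figure D3:**
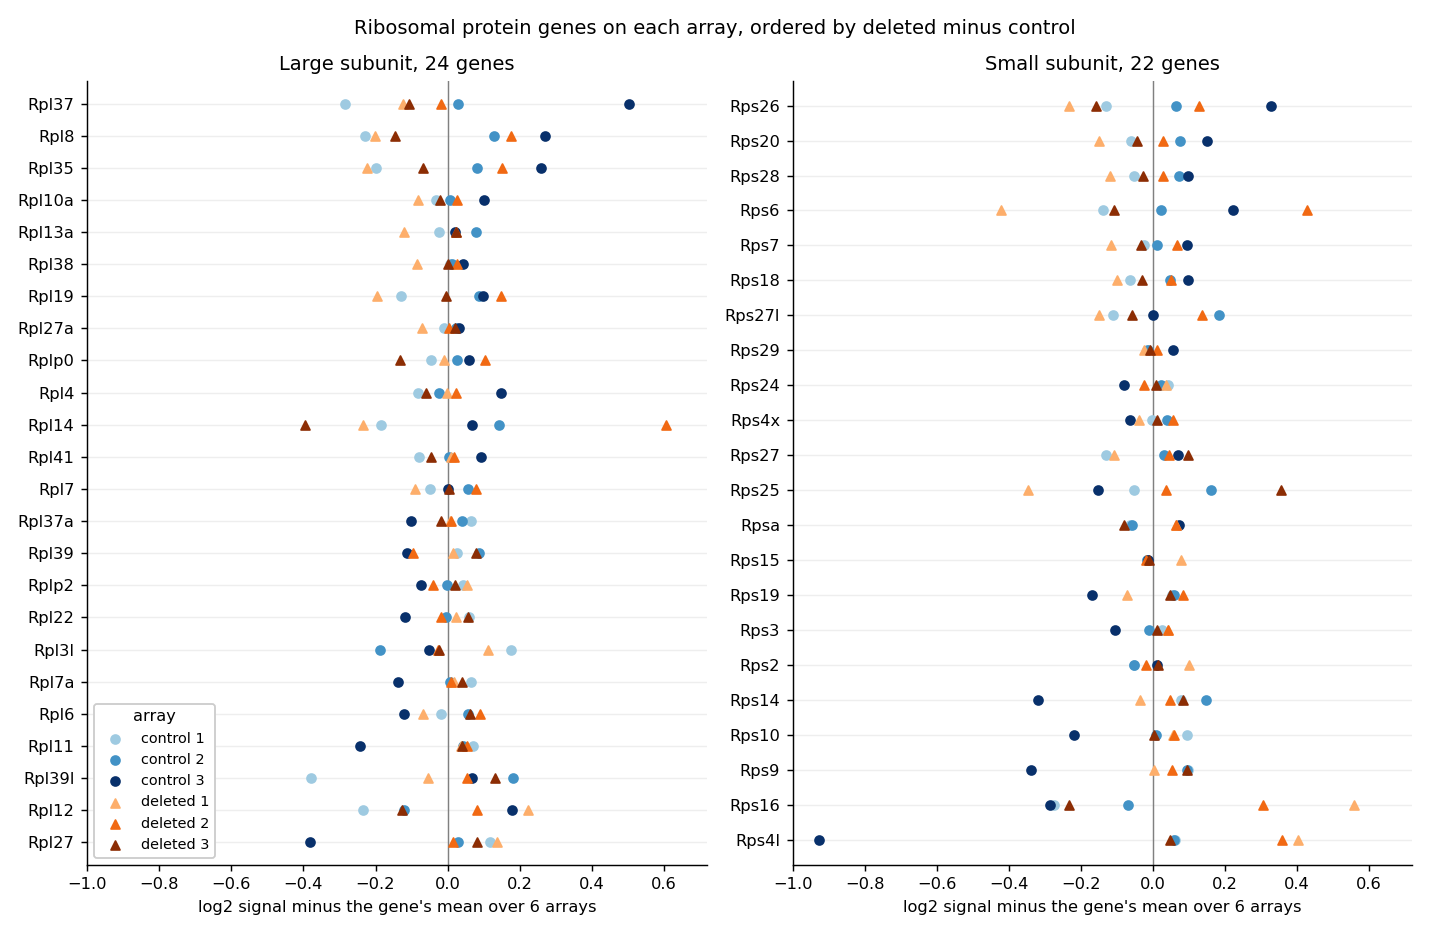
Log2 signal of each member on each array minus the gene's mean over the 6 arrays, in the large (left) and small (right) subunit, ordered from the most negative difference, deleted minus control, at the top to the most positive at the bottom. Circles are control and triangles deleted arrays, and the darkest circle, control replicate 3, lies at the right end of many upper rows and at the left end of many lower rows.

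Members with known roles outside the ribosome or in disease lay inside the same range. Rps19, the gene in which Diamond-Blackfan anemia mutations were first found, had 13.83, 13.84 and 13.61 in the control and 13.71, 13.86 and 13.83 in the deleted arrays (difference 0.04). Rpsa, also known as the laminin receptor, differed by 0.03, and Rps3, which also takes part in DNA repair, by 0.06. Rps4l (SD 0.48), Rpl14 (0.36) and Rps16 (0.35) were the most variable members. Rpl14 had 11.26 on deleted replicate 2 and 10.26 on deleted replicate 3, the highest and the lowest of its 6 values. Another 10 members, Rpl4, Rpl7, Rpl7a, Rpl19, Rpl22, Rpl37a, Rpl38, Rps2, Rps24 and Rps25, had differences between -0.04 (Rpl38) and 0.06 (Rps2).

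Paralogs with tissue-restricted or regulated expression were compared with the genes they resemble, each against its own control level. Rpl39l, a copy of Rpl39 enriched in testis, had a mean signal of 6.78 and differed by 0.09, while Rpl39, at a mean signal of 7.93, differed by -0.00012. Rpl3l, the striated muscle copy of Rpl3, had a mean signal of 5.08 and differed by 0.04. Rps27l, a p53-induced copy of Rps27, was bright (13.2) and differed by -0.05, with 13.12, 13.41 and 13.23 in the control and 13.08, 13.37 and 13.17 in the deleted arrays. Rps27, at a mean signal of 8.90, differed by 0.02. Ribosomal protein mRNAs are abundant, and whether these probe sets of Rpl39 and Rps27 read the main transcripts was not tested. Rps4x, the X-linked gene that Rps4l resembles, had 14.15, 14.19 and 14.09 in the control and 14.11, 14.21 and 14.16 in the deleted arrays. None of these genes passed the test at an unadjusted p under 0.05.

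The spread of the bright members between single arrays was small but ordered. Control replicate 3 was the highest array for 14 and the lowest for another 14 of the 35 bright members, and so an extreme for 28 of 35 (80%), against 58.7% of the 503 bright genes. Deleted replicate 1 was the lowest array for 14 of the 35 (40%), against 16.1% of those 503 genes. Deleted replicate 3 was the highest for 0 of 35, against 23.1%. Values of one array share a library, so the genes are not independent points.

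These deviations recurred in probe sets of the same gene. For 16 members, 2 or more probe sets had a signal above 13, 44 in all. On control replicate 3 all such probe sets of a gene lay on the same side of their means in 14 of the 16 genes, 7 above and 7 below. The other arrays were similar, with 14 genes on control replicate 1, 13 on deleted replicates 1 and 2, and 11 on control replicate 2 and deleted replicate 3. On control replicate 3 Rpl27 deviated by -0.52, -0.44 and -0.38, Rps14 by -0.37 and -0.32, and Rps24, another gene of Diamond-Blackfan anemia, by -0.10 to -0.080. Rpl35 deviated by 0.16 to 0.27 on 5 probe sets, and Rps20 by 0.14 and 0.15. The direction of deleted minus control was the same in all bright probe sets of 10 of the 16 genes. Their differences ranged over a median of 0.067 within a gene and at most 0.184, in Rpl37a. Probe sets of a gene read one transcript population and can share sequence, so they are not replicates of a condition.

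**Figure D4:**
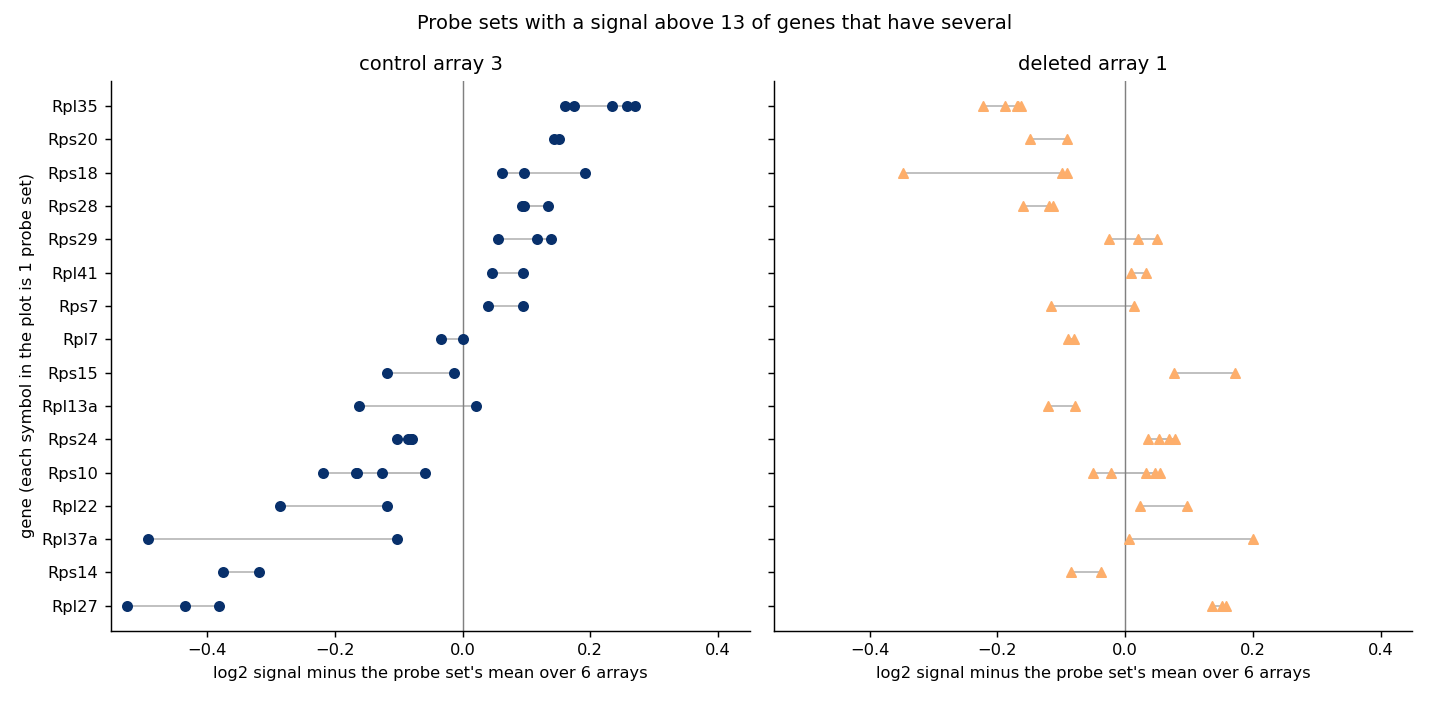
Log2 signal minus the probe set's mean over the 6 arrays, on control replicate 3 (left, circles) and on deleted replicate 1 (right, triangles), for 44 probe sets with a signal above 13 of the 16 genes that have several. Each point is 1 probe set, and grey lines join those of a gene, most of which lie on one side of 0 on control replicate 3, from -0.52 in Rpl27 to 0.27 in Rpl35.

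Over all probe sets of a gene, dim ones included, the widest disagreement was that of Rps6, with differences of -0.07 on the probe set described above and -0.49 on a second one whose mean signal was 5.41. Rps18, which contacts the transfer RNA in the small subunit head, followed with 6 probe sets from -0.30 to 0.11, both ends of which came from dim probe sets (mean signals 6.80 and 8.68) while the 3 bright ones lay between -0.16 and -0.038. Rpl41, one of the shortest known proteins, differed by -0.01 and 0.09 on its bright probe sets and by 0.25 on both dimmer ones. Probe sets annotated with several genes, at least 1 of them ribosomal, numbered 76 for the large and 34 for the small subunit. Their median differences were -0.020 and 0.0025, none had an unadjusted p under 0.05, and 1 of each subunit separated the groups, where 2.83% of all probe sets did so downward and 3.61% upward.

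For 18S rRNA, a ribosomal RNA, the arrays hold control probe sets, and whether their signal follows its amount was not tested. The brightest of them gave 13.43, 12.66 and 11.48 in the control and 13.89, 12.31 and 13.29 in the deleted arrays, with means of 12.52 ± 0.98 and 13.17 ± 0.80 (SD, n = 3). The values of the groups overlapped. The 3′ and 5′ probe sets were dimmer, with means of 7.66 and 6.17 in the control and 7.84 and 6.425 in the deleted arrays.

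Other genes of translation were read from lists of known factors, and no list gene passed limma's test after adjustment. Of 15 measured elongation and other TOP mRNA genes, 4 had negative and 11 positive differences with a median of 0.026. Fau, the fusion of a ubiquitin-like protein with a small subunit protein, differed by 0.08, the initiation factor subunit Eif3f by 0.14 and the splicing factor Hnrnpa1 by 0.19. These genes had their lowest value on control replicate 3, and without it they differed by -0.0076, 0.029 and -0.0051. Of 26 initiation factors, 7 were negative and 19 positive with a median of 0.063, from Eif3l (-0.22) to Eif1b (0.30), with 0.23 for Eif2b1, a subunit of the exchange factor of eIF2. Single arrays set much of these values, since Eif3l differed by -0.0058 and Eif1b by 0.12 without control replicate 3, and Eif2b1 by 0.040 without deleted replicate 2.

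The 53 measured ribosome biogenesis factors had a median difference of 0.083, with 13 negative and 40 positive values. At an unadjusted p under 0.05, 2 of them were higher and 0 lower in the deleted group, where 0.977% of all probe sets were higher and 1.1% lower. Utp18, part of the processome that makes the small subunit RNA, had 9.03, 8.77 and 8.90 in the control and 9.55, 9.16 and 9.22 in the deleted arrays (difference 0.41), but the mean of all its probe sets differed by -0.090. Rrp15, of large subunit assembly, had 7.93, 8.11 and 8.06 against 8.32, 8.66 and 8.30 (difference 0.39). For Ebna1bp2, another large subunit assembly factor, the groups did not overlap either, but control replicate 3, at 10.75, set most of the difference of 0.46, which was 0.18 without it. In all, 5 of the 53 genes lay higher without overlap and 0 lower, where 3.61% and 2.83% of all probe sets did. Of 12 measured genes of RNA polymerase I, which transcribes ribosomal RNA, 5 were negative and 7 positive with a median of 0.062, among them its largest subunit Polr1a (0.21) and the promoter selectivity factors Taf1b (0.20) and Taf1a (-0.20). Polr1a differed by 0.030 without deleted replicate 1, and Taf1b by 0.13 and Taf1a by 0.10 without control replicate 3.

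In the list of mTOR and translation control genes, 18 of 25 differences were negative, with a median of -0.048, and 1 gene was lower at an unadjusted p under 0.05, as 1.1% of all probe sets were. This was Tsc2, an inhibitor of mTOR complex 1, with 9.40, 9.44 and 9.69 in the control and 8.97, 9.25 and 9.12 in the deleted arrays (difference -0.40). Rptor, the scaffold of that complex, differed by -0.38 with one high control value of 9.38 on replicate 3 and by 0.13 without it. The kinase gene Rps6ka6 differed by -0.39. Of 13 transcription factors known at ribosomal protein or ribosome biogenesis promoters, 10 were positive with a median of 0.069. Mycn had 10.09 on deleted replicate 1 and 8.21 on deleted replicate 2, the highest and lowest of its 6 values (difference 0.52), and Myc and Tbp differed by 0.38 and 0.30, of which Tbp kept 0.093 without control replicate 3.

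The 8 measured genes of the ribosomal stress and Mdm2 pathway had a median difference of -0.024, with Sesn2 at -0.22 and the p53 targets Cdkn1a and Bbc3 at 0.14 each, and none passed at an unadjusted p under 0.05. Without control replicate 3 Sesn2 differed by -0.10 and Bbc3 by 0.027. The proteins of the mitochondrial ribosome, which translates mitochondrial mRNAs, offered a second set of ribosome parts. Of the 76 measured, 30 were negative and 46 positive with a median of 0.033, and 0 passed at an unadjusted p under 0.05. Mrpl34 (-0.47), Mrps24 (-0.32) and Mrps10 (0.38) were farthest from 0, but without control replicate 3 Mrpl34 differed by -0.034 and Mrps24 by 0.077.

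The list medians were also read on each array. The median deviation of the large subunit genes on the 6 arrays ran from -0.033 to 0.037 and that of the small subunit genes from -0.038 to 0.051, whereas that of the mitochondrial genes ran from -0.20 on control replicate 1 to 0.32 on deleted replicate 2. The SD of these medians within the groups, pooled over both groups, was 0.033, 0.041 and 0.23. Within both groups the mitochondrial values spread more widely than the group means differed. Mitochondrial genes were also dimmer, with a median signal of 10.6 against 14.1 for the members, so the smaller movement of the members cannot be told apart from their place near the top of the scale.

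**Figure D5:**
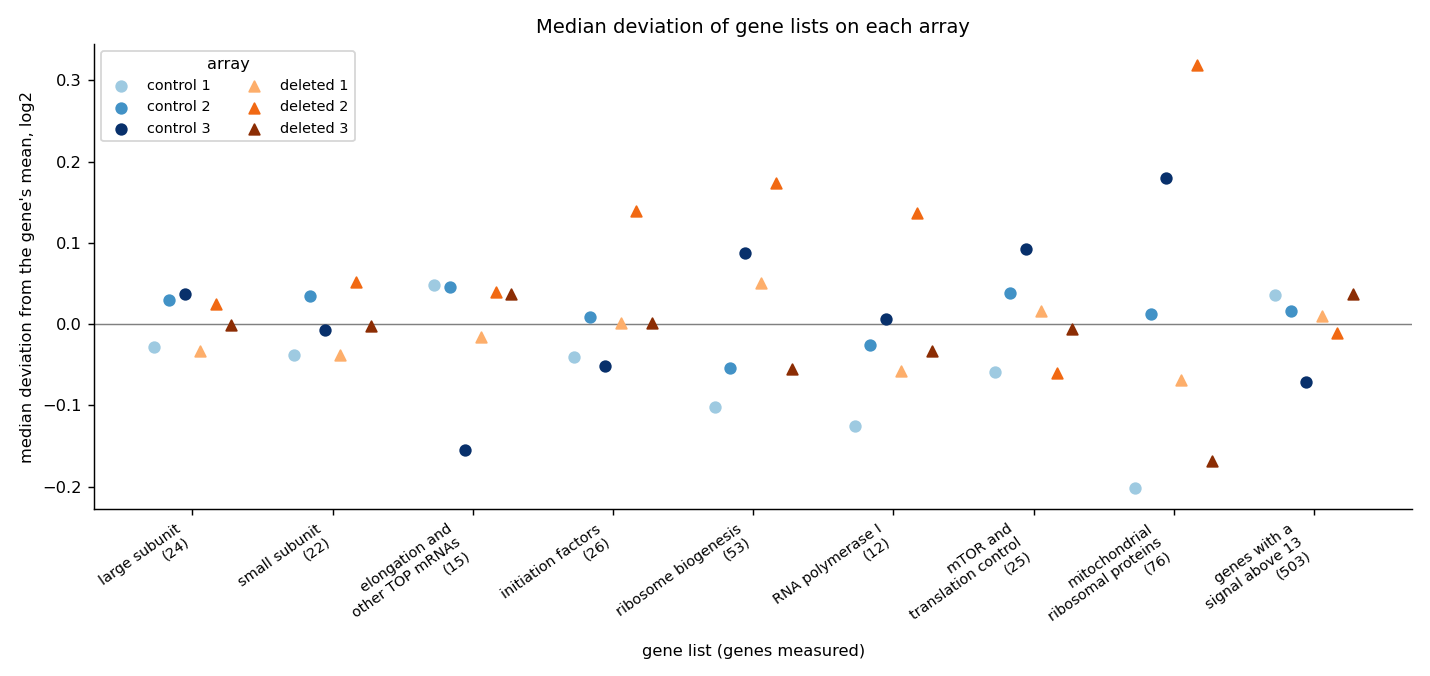
Median over the genes of a list of the log2 signal minus the gene's mean over the 6 arrays, for each array (circles control, triangles deleted) and list, with the number of genes measured. Both subunits stay between -0.038 and 0.051 on every array, whereas the mitochondrial ribosomal proteins reach -0.20 and 0.32, and no list separates the 3 control from the 3 deleted arrays.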

How the data were processed

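Amplified, biotin-labelled RNA of the sorted cells was read on 1-color Affymetrix mouse expression arrays, 6 samples in all. The authors deposited log2 values made with RMA, which corrects background, sets all arrays to a common distribution and combines the probes of a probe set. The sources used here do not give its version. RMA equalizes array distributions, so a shift shared by most transcripts cannot be seen, and it narrows differences of dim probe sets. Signals of different probe sets do not order transcript abundance.

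Of 45101 probe sets, 64 array controls were left out. Differences were tested with limma 3.58.1 (lmFit and eBayes, two-sided, R 4.3.3) over all 6 arrays without covariates or filter, with Benjamini-Hochberg adjustment. The procedure was tested on simulated data. Precision is limited by 3 arrays a group. A p-value sets the difference between the groups against the spread between these samples, which eBayes moderates over all probe sets. For bright members with little spread the standard error comes mostly from this moderation. Rps29, with group SDs of 0.041 and 0.019, had a standard error of 0.12. Their p-values and intervals thus say little about their own spread. The members, gene lists, tests and the rule for named genes were chosen with earlier results of these data known. The rule named, per subunit, the 5 lowest and 5 highest differences, genes of set roles, paralogs, the 3 most and 3 least variable members, the 3 with the widest disagreement between probe sets, and the 3 largest differences of each list.

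Alternatives were array weights, a filter on probe sets below the median signal, a robust prior with a trend, centring, a further quantile normalization, a replicate block, an unmoderated test, other probe sets and leaving out each array. Probe sets of several genes, members at or above the median signal, and the spread by signal were added after seeing the data.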

Additional observations from a re-analysis of the deposited data

How the results depend on the processing

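No member passed limma's adjusted test under any alternative run, and the smallest adjusted p over all probe sets in any of them was 0.521. At an unadjusted p under 0.05 the small subunit count was 1 (Rps16, signal 3.66) with a replicate block on the animal number and 0 to 1 when leaving out each array (Rps16 again, without deleted replicate 3), and the large subunit count stayed at 0. The numbers pair only 2 arrays a group (correlations of deviations 0.166 and -0.0171), so they were not taken to pair the samples. Replicate 3 of each group has no partner, so differences with the block come from the paired arrays alone. With the replicate block the median differences were -0.00524 (large) and -0.0124 (small). Genes without overlap numbered 1 with further quantile normalization (Rpl10a), 1 when centred (Rps3), 1 per subunit among probe sets of several genes, and 0 to 4 in each subunit without 1 array, where groups of 2 and 3 separate more easily. The large subunit median ran from -0.0448 to 0.00832 and the small from -0.015 to 0.0371 on leaving out arrays, and was -0.023 with array weights for the small. The cause was not tested.

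Of 60 named genes, none was called in any of 835 recomputed values. In all, 77 values had the opposite sign, 18 of them on leaving out control replicate 3, which the replicate block does not use either. With the replicate block these were Rpl37 0.0568, Rpl8 0.038, Rpl35 0.023, Rpl6 -0.0107, Rpl11 -0.0125, Rps6 0.0623, Rps14 -0.106, Rps9 -0.0678, Rplp0 0.0553, Rplp2 -0.0144, Rps19 -0.05, Rps4x -0.00954, Rps29 0.00947, Rpl14 0.207, Rpl41 0.0528, Hnrnpa1 -0.0667, Eif3l 0.126, Taf1a 0.151, Rptor 0.268, Tbp -0.13, Sesn2 0.0604, Bbc3 -0.0898, Mrpl34 0.184 and Mrps24 0.218. With array weights they were Rpl6 -0.0183, Rpl39l -0.0789, Rps14 -0.0867, Rps9 -0.0211, Rps19 -0.0312, Rps4x -0.0249, Rps29 0.00342 and Taf1a 0.183. Centred on array medians they were Rpl39 0.0163, Rps29 0.00175, Rpl14 0.000265 and Rpl41 0.00482. With further quantile normalization it was Rpl39 0.0271. With the mean of all probe sets of a gene they were Rpsa -0.0125, Rps3 -0.0825, Rpl27a 0.0108, Rpl41 0.143 and Utp18 -0.0901. Leaving out each array in turn gave, as lowest and highest values, Fau -0.0076 to 0.143, Hnrnpa1 -0.00512 to 0.292, Mrps24 -0.753 to 0.0769, Rpl11 -0.0144 to 0.142, Rpl14 -0.323 to 0.177, Rpl35 -0.216 to 0.0122, Rpl37 -0.35 to 0.0447, Rpl39 -0.0567 to 0.0472, Rpl39l -0.0824 to 0.199, Rpl3l -0.0407 to 0.14, Rpl41 -0.0547 to 0.0326, Rplp0 -0.0857 to 0.0325, Rplp2 -0.00978 to 0.0483, Rps10 -0.0124 to 0.144, Rps14 -0.0805 to 0.153, Rps19 -0.0357 to 0.0846, Rps27 -0.038 to 0.0821, Rps27l -0.128 to 0.0316, Rps29 -0.0269 to 0.00874, Rps4x -0.00849 to 0.0435, Rps6 -0.3 to 0.125, Rps9 -0.0456 to 0.172, Rptor -0.716 to 0.132 and Taf1a -0.439 to 0.101.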
